A study of Mus musculus with 16 samples.

Results

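The insulin receptor gene Insr and the genes of its substrates, Irs1 and Irs2, were examined for what binds around them in fat cells. The members are the peaks, short stretches where a protein was found bound to DNA, whose centre lies in 1 fixed window per gene. The windows were given as mm9 positions: 3110000 to 3320000 on chromosome 8 for Insr, 82180000 to 82340000 on chromosome 1 for Irs1, and 10930000 to 11060000 on chromosome 8 for Irs2. The rule uses position alone. It gave 72 of 61107 peaks, of which 34 come from the PPARγ list of 30588 and 38 from the C/EBPα list of 30519.

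The cells were 3T3-L1, a mouse fibroblast line that becomes fat cells in culture, studied at day 7 of differentiation. They received 1 µM rosiglitazone in 0.1% DMSO, or 0.1% DMSO alone, for 1 h, and chromatin immunoprecipitation with sequencing (ChIP-seq) was done with antibodies to PPARγ, C/EBPα, MED1 and CBP. The labels list 16 samples in 12 groups of antibody and treatment, with 2 PPARγ samples per treatment and 1 each for C/EBPα, MED1 and CBP. The RNA polymerase II and input samples were not used here. Each factor has 1 column of values per treatment, so no difference between treatments has a replicate check, and PPARγ columns name no replicate. All cells are of 1 line, which limits the series as a model of fat tissue.

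Insulin binds the receptor that Insr encodes, a tyrosine kinase at the cell surface. The receptor phosphorylates the docking proteins IRS1 and IRS2, which recruit phosphatidylinositol 3-kinase and so lead, through AKT, to glucose uptake and the restraint of lipolysis in fat cells. PPARγ is the nuclear receptor that rosiglitazone binds and activates, and C/EBPα is its partner in fat cell differentiation. MED1 links the Mediator complex to nuclear receptors. CBP, recruited by many transcription factors, acetylates histones.

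The start-site sequences of the substrate genes are shown because they are what the reference tables hold for these loci. Promoters of 2 of the 3 genes were matched, in RefSeq's table for GRCm38.p6. They are the 250 bases before the start of Irs1 (chr1:82291440-82291689, minus strand) and of Irs2 (chr8:11008930-11009179, minus strand), printed 5′ to 3′. Capitals mark the E-box CACGTG and the insulin response element TGTTTTG, motifs picked after the sequences were seen.
Irs1: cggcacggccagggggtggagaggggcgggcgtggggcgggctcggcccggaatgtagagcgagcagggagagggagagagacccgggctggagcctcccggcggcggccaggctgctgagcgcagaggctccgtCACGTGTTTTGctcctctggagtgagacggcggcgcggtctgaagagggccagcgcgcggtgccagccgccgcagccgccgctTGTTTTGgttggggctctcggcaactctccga
Irs2: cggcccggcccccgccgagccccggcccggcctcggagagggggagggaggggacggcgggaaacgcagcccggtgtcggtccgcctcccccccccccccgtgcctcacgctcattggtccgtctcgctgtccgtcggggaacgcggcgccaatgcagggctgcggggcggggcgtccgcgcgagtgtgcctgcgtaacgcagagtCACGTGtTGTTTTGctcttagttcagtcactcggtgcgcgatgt

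Both promoters carry an E-box with an insulin response element beside it, the element being on the printed strand. The E-box reads the same on either strand. Positions are counted back from the start site. In Irs1 the E-box begins at -115 and overlaps the element at -111, with another element at -32. In Irs2 the E-box begins at -44 and the element at -37. The longest runs that both promoters hold have 10 bases, GTCACGTGTT over the E-box and TGTTTTGCTC over the element. On either strand CACGTG occurs in 6.02% and TGTTTTG in 5.56% of 32851 RefSeq promoter windows. Both promoters are rich in G and C, at 72.4% for Irs1 and 72.8% for Irs2 against a median of 52.4%. Neither window holds AGGTCA, the nuclear receptor core site (in 14.0% of promoters), the PPAR direct repeat AGGTCANAGGTCA (0.0335%), or the C/EBP motif TTNNGCAA (9.56%). The peaks are on mm9 and the promoters on GRCm38.p6, so positions in one cannot be read against the other, and no peak is placed at a start site, exon or intron here. In RefSeq's gene order the neighbours are Arhgef18 beside Insr, Nyap2 and Rhbdd1 beside Irs1, and Myo16 and Col4a1 beside Irs2. Peaks are assigned to windows, and which gene a peak acts on was not tested.

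All 3 windows held more peaks than most of the genome. The Insr window of 210 kb held 15 PPARγ and 17 C/EBPα peaks, the Irs1 window of 160 kb 6 and 8, and the Irs2 window of 130 kb 13 and 13. In consecutive stretches of the genome of the same length, at least as many PPARγ peaks were found in 1.50% for Insr, 10.8% for Irs1 and 0.553% for Irs2. For C/EBPα the shares were 0.494%, 5.28% and 0.340%. Over the whole window Irs2 was the densest, with 10.0 peaks per 100 kb of each list. Insr had 7.14 PPARγ and 8.10 C/EBPα peaks per 100 kb, and Irs1 3.75 and 5.00. At Insr the peaks lay in the later part of the window, and the first began at 3211517. From first to last centre, its 15 PPARγ peaks spanned 92.9 kb and its 17 C/EBPα peaks 94.4 kb. The 13 peaks of each list at Irs2 spanned 104 and 108 kb, so by occupied span Insr was denser than Irs2.

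PPARγ and C/EBPα coincided most often at Insr. There 10 of the 15 PPARγ peaks had at least 1 bp in common with a C/EBPα peak, against 2 of 6 at Irs1 and 5 of 13 at Irs2. Over the whole PPARγ list the share was 36.1%. The balance of the factors differed as well. At the PPARγ peaks of Insr, in DMSO, summed C/EBPα signal was 1.07 times the PPARγ signal (0.881 to 1.29), against 0.390 at Irs1 (0.215 to 0.664) and 0.487 at Irs2 (0.368 to 0.637). The other PPARγ peaks of the list gave 0.906. Levels of different antibodies share no common scale, so these ratios compare loci, not factors.

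**Figure D1:**
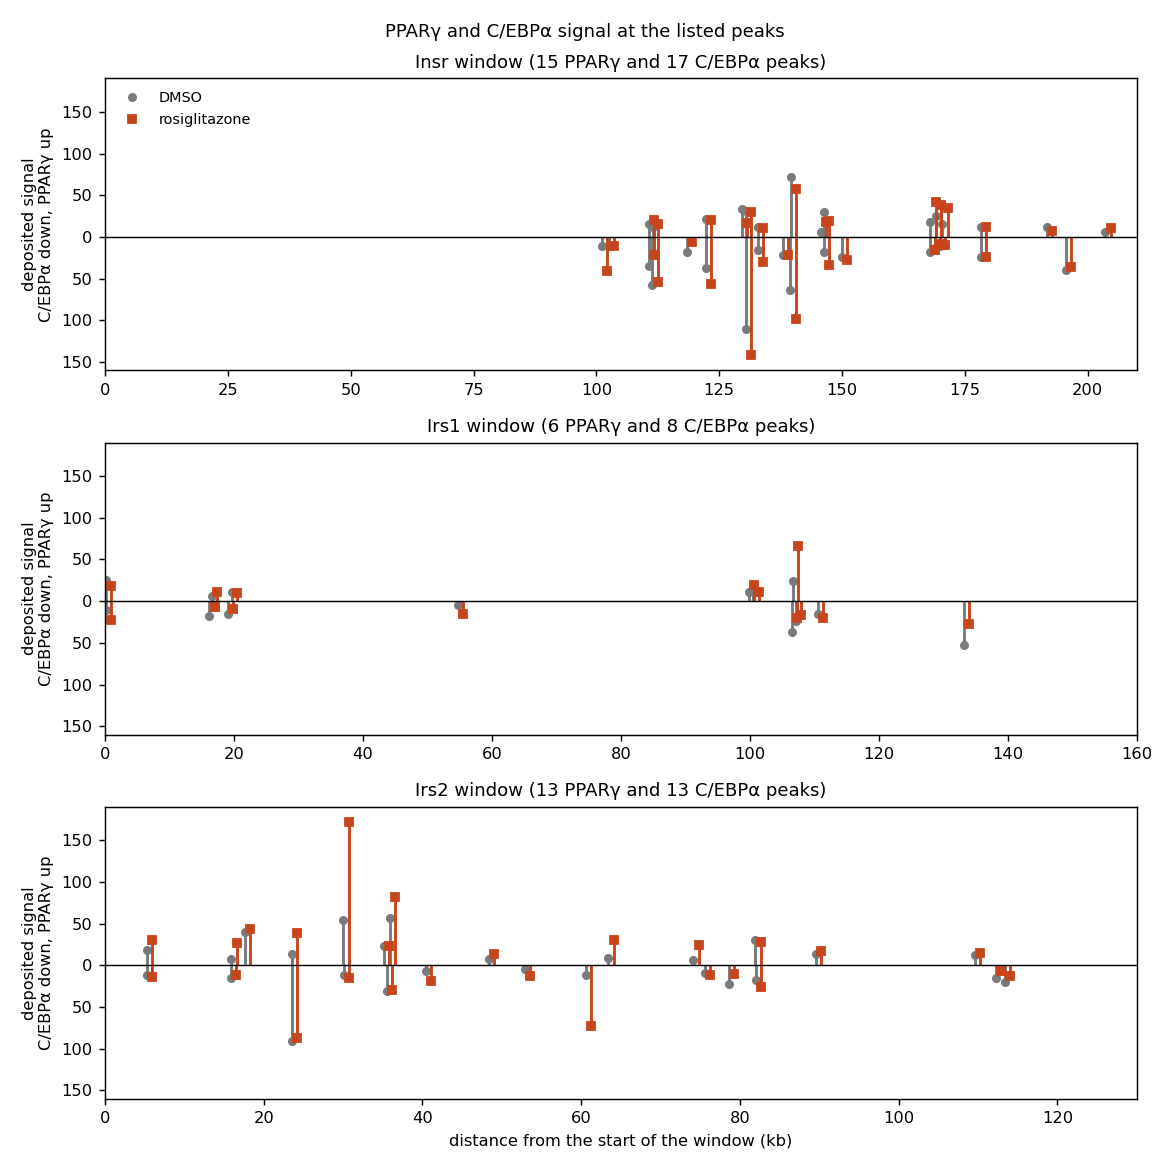
Deposited signal at each listed peak against its distance from the start of the window in kb, with PPARγ at PPARγ peaks drawn upward and C/EBPα at C/EBPα peaks drawn downward, in DMSO (grey circles) and rosiglitazone (orange squares). The tallest PPARγ peak with rosiglitazone is at Irs2 (172), and the tallest C/EBPα peak is at Insr (141).

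Signal is in the authors' deposited units, which are normalised tags, a tag being 1 mapped read. Every value was a whole multiple of what 1 tag is worth, so tags could be counted. For PPARγ 1 tag is worth 0.879 units in DMSO and 0.831 in rosiglitazone, and for C/EBPα 2.21 and 1.27. MED1 and CBP are shallower, at 3.49 and 7.65 units a tag for MED1 and 2.21 and 6.06 for CBP. Over the list, a PPARγ peak held a median of 12 PPARγ tags in DMSO and 17 in rosiglitazone, but 2 and 1 for MED1 and for CBP. Ratios are rosiglitazone over DMSO, with exact 95% Clopper-Pearson intervals from the tags. They cover counting error only, not the spread between cultures or libraries, and tags carry no molecular identifiers.

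After 1 h of rosiglitazone the PPARγ signal was higher at Irs2 and Irs1 and nearly level at Insr. Summed over its PPARγ peaks, Insr had 324.5 units in DMSO and 352 in rosiglitazone, giving a ratio of 1.08 (0.940 to 1.25). Irs1 had 90.6 and 135 units, a ratio of 1.49 (1.15 to 1.92). Irs2 had 295 and 544, a ratio of 1.85 (1.62 to 2.11). The 30554 other PPARγ peaks gave 1.53. Against them the Insr ratio was 0.710 times as large (0.616 to 0.819), that of Irs1 0.975 times (0.757 to 1.26) and that of Irs2 1.21 times (1.06 to 1.38).

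The loci also differed from each other by more than counting error in some pairs. The Insr ratio was 0.587 times that of Irs2 (0.482 to 0.715) and 0.729 times that of Irs1 (0.543 to 0.977). Over their PPARγ peaks Irs1 and Irs2 could not be told apart, at 0.806 (0.604 to 1.08). The place of Irs1 turned on its peak at 82287002. Without it Insr and Irs1 no longer differed beyond counting error, at 1.05 times (0.735 to 1.50), and Irs1 was 0.559 times Irs2 (0.394 to 0.797). Over the C/EBPα peaks of the windows the PPARγ ratio at Insr was 0.833 times that at Irs1 (0.604 to 1.15). There Irs1 was 0.525 times Irs2 (0.377 to 0.732), beyond counting error. The same sums over stretches of the genome of the same length with at least 10 PPARγ peaks show how widely loci vary. Of 741 stretches as long as the Insr window, 46 had a ratio at or below that of Insr, and the 5th to 95th percentiles were 1.04 and 2.69. Of 403 stretches as long as the Irs2 window, 179 had a ratio at or above that of Irs2. Of 524 stretches as long as the Irs1 window, 151 had a ratio at or below that of Irs1, which itself held fewer than 10 PPARγ peaks.

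Peak by peak, PPARγ signal was higher with rosiglitazone at 8 of 15 PPARγ peaks at Insr, 3 of 6 at Irs1 and 12 of 13 at Irs2, and at 70.5% of the whole list. With 1 unit added to each value, 9 of the 34 members were at least 2-fold higher, 5 of them at Irs2, against 30.0% of the list. None of the 34 was at least 2-fold lower, against 4.43%. The counting interval lay above 1 for 10 members (28.1% of the list) and below 1 for 1 (3.83%). The members' counts of higher peaks are near the background, and the median log2 ratio was 0.33 for them and 0.50 for all PPARγ peaks.

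**Figure D2:**
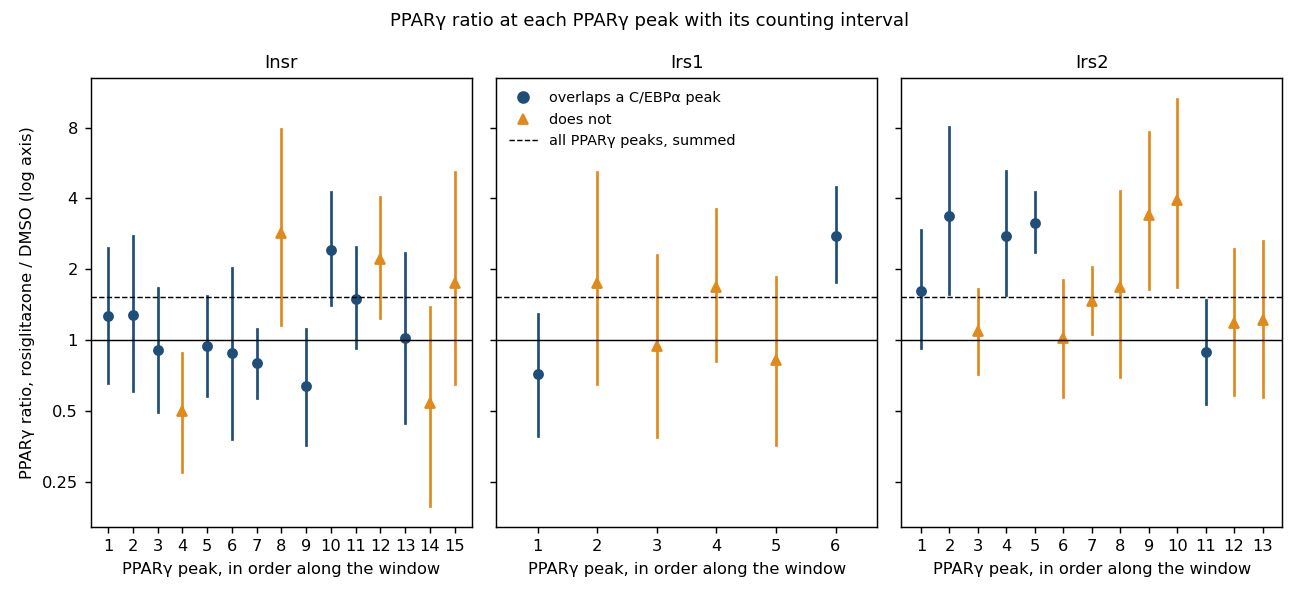
PPARγ ratio (rosiglitazone over DMSO, log axis) at each of the 34 PPARγ peaks in order along its window, with 95% counting intervals as vertical lines. Circles are peaks that overlap a C/EBPα peak, triangles peaks that do not, the solid line is a ratio of 1 and the dashed line the ratio summed over all PPARγ peaks (1.53). Most Irs2 peaks lie above 1 (12 of 13), while Insr peaks lie on both sides (8 above and 7 below).

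At Insr, the gene of the receptor itself, the strongest PPARγ peak was not higher with rosiglitazone. It lay on chromosome 8 from 3249961 to 3250147 and had a score of 65.0 (the authors' peak score, rank 778 in the list), with PPARγ at 72.1 units in DMSO and 57.4 in rosiglitazone. That is a ratio of 0.796 (0.569 to 1.11), within counting error. C/EBPα there was 59.6 and 87.9 units, a ratio of 1.47 (0.932 to 2.39). A peak at 3240825 to 3241011 was also level, with 31.7 and 29.9 units of PPARγ, and carried 81.7 and 104 units of C/EBPα. Both are sites that the lists share, and neither differed beyond counting error in PPARγ or C/EBPα.

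One Insr peak was lower beyond counting error. From 3240053 to 3240239, with no C/EBPα peak over it, PPARγ was 33.4 in DMSO and 16.6 in rosiglitazone, giving a ratio of 0.498 (0.274 to 0.877). It was singled out after its values were seen. MED1 held 0 tags there in both treatments, and CBP 10 tags in DMSO and 0 in rosiglitazone. The C/EBPα peak at 3256772 to 3257002 also had less PPARγ, with 29.0 and 9.98 units, a ratio of 0.344 (0.162 to 0.683). Its C/EBPα was 17.7 and 33.1. The PPARγ peak overlapping it, from 3256701 to 3256887, had 29.9 and 19.1 units of PPARγ, a ratio of 0.640 (0.360 to 1.12), so the size of this difference depends on the exact stretch counted. MED1 in the PPARγ peak was at 11 tags in DMSO and 0 in rosiglitazone, which is at least 1.67-fold lower against that library's floor of 3 tags (upper bound of the ratio 0.872). In the C/EBPα peak MED1 was at 4 and 0 tags, within counting error (upper bound 3.32).

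The higher PPARγ values at Insr lay mainly in 1 run of 3 peaks within 2.62 kb. The first, from 3278431 to 3278617, held 17.6 units in DMSO and 42.4 in rosiglitazone, giving a ratio of 2.41 (1.41 to 4.27). The middle one, from 3279468 to 3279654, held 25.5 and 38.2 units, a ratio of 1.50 (0.922 to 2.48). The last, from 3280867 to 3281053, held 15.8 and 34.9 units, a ratio of 2.21 (1.24 to 4.07). Every one of the 3 was higher with rosiglitazone. Summed, the run gave 1.96 (1.46 to 2.67), and the 12 other PPARγ peaks of the window 0.889 (0.753 to 1.05), so the run's ratio was 2.21 times larger (1.56 to 3.13). Runs, defined by gaps of at most 5 kb, were looked at after the values had been seen. This run had the highest PPARγ ratio of the PPARγ runs in the window, the others being at 1.27, 0.741 and 1.01. The interval does not cover that choice.

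The middle peak of that run was the MED1 maximum of the Insr window. MED1 was 90.9 units in DMSO and 153 in rosiglitazone at 3279468, a ratio of 1.68 (0.892 to 3.14), and CBP 17.7 and 24.3. Over the run MED1 gave 1.97 (1.13 to 3.43), and over the 12 other peaks 1.02 (0.568 to 1.77). The difference between run and remainder was not resolved for MED1, at 1.94 times (0.864 to 4.35). Outside the run, a peak at 3256191 to 3256377 was higher in PPARγ, with 6.16 and 17.5 units and a ratio of 2.84 (1.16 to 7.90), from 7 and 21 tags. The 7 PPARγ peaks of the window not described above had PPARγ ratios from 0.540 to 1.76, with intervals that included 1.

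C/EBPα at Insr was strong and somewhat higher with rosiglitazone. Over its 17 C/EBPα peaks it summed to 530 units in DMSO and 637 in rosiglitazone, giving a ratio of 1.20 (1.03 to 1.41), against 1.01 for the other C/EBPα peaks of the list. The strongest, from 3240829 to 3241059 (score 126.8), was at 110 and 141 units, a ratio of 1.28 (0.909 to 1.83). Those at 3249915 to 3250145 and 3221811 to 3222041 held 64.0 and 98.1, and 57.4 and 53.5. Higher beyond counting error was a weaker one, from 3211517 to 3211747, with 11.0 and 40.8 units (5 and 32 tags), a ratio of 3.69 (1.43 to 12.1). Of the 17 peaks 8 were higher, against 53.7% of the list. Without the peak at 3249915 it was 1.16 (0.978 to 1.37), and without the one at 3240829 it was 1.18 (0.990 to 1.41), so either removal brings the interval to 1. In the run, C/EBPα was 17.7 and 15.3 units at 3278369, 13.3 and 8.92 at 3279391 and 11.0 and 10.2 at 3280307. These differ within counting error, while MED1 at 3279391 was 69.9 and 153, a ratio of 2.19 (1.12 to 4.29). The 9 other C/EBPα peaks lay between 11.0 and 39.8 units in DMSO and between 6.37 and 56.0 in rosiglitazone, none beyond counting error.

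At Irs1, the gene of a main substrate of the receptor in fat cells, 1 peak carried the PPARγ difference. From 82287002 to 82287188 on chromosome 1 (score 44.4), PPARγ was 23.7 units in DMSO and 65.7 in rosiglitazone, giving a ratio of 2.77 (1.77 to 4.46). That peak held 48.8% of the window's PPARγ signal in rosiglitazone. Without it the Irs1 ratio was 1.03 (0.747 to 1.43). The next highest scores were at 82180461 to 82180647, with 25.5 and 18.3 units (0.717, 0.393 to 1.29), and 82280121 to 82280307, with 11.4 and 19.1 (1.67, 0.813 to 3.60). The 3 remaining peaks lay between 6.16 and 13.2 units in DMSO and between 9.98 and 10.8 in rosiglitazone, and none differed beyond counting error.

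The strongest Irs1 site was flanked by C/EBPα rather than centred on it. A C/EBPα peak from 82286800 to 82287030 touched it by 29 bp, with 37.5 and 20.4 units of C/EBPα (0.543, 0.257 to 1.14). Another, from 82287376 to 82287606, lay on its other side and had 24.3 and 16.6 (0.682, 0.282 to 1.68). MED1 at the latter was 76.9 in DMSO and 153 in rosiglitazone, giving a ratio of 1.99 (1.03 to 3.82), with PPARγ at 19.4 and 39.1, a ratio of 2.02 (1.19 to 3.52). Its score tied for the third highest of the Irs1 window with the peak at 82180438. At the PPARγ peak between them MED1 was 17.5 and 30.6, from 5 and 4 tags (1.75, 0.348 to 8.14).

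MED1 at Irs1 turned on a single peak at the edge of the window. At 82180461, the first peak inside the window, MED1 went from 17 tags in DMSO to 0 in rosiglitazone, which is at least 2.59-fold lower against a floor of 3 tags in that library (exact upper bound of the ratio 0.531). PPARγ there was 25.5 and 18.3 units and CBP 53.0 and 36.4. Summed over the 6 PPARγ peaks MED1 gave 0.803 (0.363 to 1.65), and without this peak 1.85 (0.752 to 4.48). Both intervals include 1, so the direction at Irs1 was not resolved. CBP gave 0.797 (0.334 to 1.71), with 3 of 6 peaks at 0 tags in DMSO and 4 in rosiglitazone.

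C/EBPα at Irs1 summed to 179 units in DMSO and 140 in rosiglitazone over 8 peaks, a ratio of 0.783 (0.583 to 1.06). The strongest peak, from 82313423 to 82313653, was at 53.0 and 28.0 units, a ratio of 0.529 (0.283 to 0.984), with 0 and 2 tags of PPARγ. It was the only member whose C/EBPα interval lay below 1. The remaining 5 C/EBPα peaks had 4.42 to 17.7 units in DMSO and 7.64 to 22.9 in rosiglitazone. The C/EBPα ratio at Irs1 was lower than at Insr, which was 1.53 times as large (1.09 to 2.15), and 0.634 times that of Irs2 (0.436 to 0.924). Both differences were lost under some choices of peaks. Without the peak at 82313423 they were 1.35 (0.916 to 1.98) and 0.721 (0.476 to 1.10), and without the Irs2 peak at 10990830 the latter was 0.781 (0.532 to 1.15). Over the PPARγ peaks C/EBPα gave the opposite order, within counting error, at 0.917 for Insr over Irs1 (0.459 to 1.76) and 1.05 for Irs1 over Irs2 (0.523 to 2.19).

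At Irs2, the gene of the other main substrate, the strongest PPARγ peak by score was also the one with the largest difference in units. The score names no sample and may include the rosiglitazone signal, so a high score and a large difference are not independent. In DMSO alone the peak at 10966122 was slightly higher, at 56.3 units. From 10960278 to 10960464 on chromosome 8, with a score of 112.4 and rank 218, PPARγ was 54.5 units in DMSO and 172 in rosiglitazone, giving a ratio of 3.16 (2.37 to 4.26). MED1 was also higher, at 24.5 and 245 units, from 7 and 32 tags, a ratio of 10.0 (4.34 to 26.9). CBP was 6.63 and 12.1 (3 and 2 tags) and C/EBPα 8.83 and 14.0. Without this peak the PPARγ ratio of Irs2 was 1.55 (1.33 to 1.81), close to that of the list.

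The next Irs2 peaks by score had smaller PPARγ ratios. PPARγ was 56.3 and 82.3 units at 10966122 to 10966308 (ratio 1.46, 1.06 to 2.04) and 40.5 and 44.1 at 10947857 to 10948043 (ratio 1.09, 0.720 to 1.65). In DMSO they were as high as or near the strongest peak. Neither overlapped a C/EBPα peak, and MED1 was low at both, with 1 and 4 tags at the first and 0 and 2 at the second.

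In contrast, 4 weaker Irs2 peaks were at least 2-fold higher in PPARγ. At 10946149 to 10946335 PPARγ was 7.91 and 26.6 units, a ratio of 3.36 (1.57 to 8.01). At 10953731 to 10953917 it was 14.1 and 39.1, a ratio of 2.78 (1.55 to 5.25). At 10993647 to 10993833 it was 8.79 and 29.9, a ratio of 3.40 (1.65 to 7.69), and at 11004371 to 11004557 6.16 and 24.1, a ratio of 3.92 (1.68 to 10.6). All 4 intervals lay above 1. The first pair overlapped C/EBPα peaks and the other pair did not. MED1 at the latter was 24.5 and 7.65 units at 10993647 (7 and 1 tags) and 17.5 and 0 at 11004371 (5 and 0 tags). The 6 remaining PPARγ peaks had ratios from 0.891 to 1.68, with intervals that included 1.

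MED1 at Irs2 was higher beyond counting error at 3 of the 5 shared PPARγ peaks, including the strongest. The share of all listed peaks with such a MED1 interval was not counted, so this number has no background beside it. At 10946149 MED1 was 48.9 in DMSO and 130 in rosiglitazone, giving a ratio of 2.66 (1.23 to 5.83), and CBP 26.5 and 84.9, a ratio of 3.20 (1.37 to 7.58). At 10953731 MED1 was 69.9 and 145, a ratio of 2.08 (1.05 to 4.11), but CBP 39.8 and 24.3. Over the C/EBPα peak on that site, at 10953746, MED1 was 94.4 and 138, a ratio of 1.46 (0.757 to 2.75), within counting error. The other shared peaks were level or nearly empty, with 31.5 and 30.6 units at 10935460 (0.973, 0.219 to 3.49) and 0 and 2 tags at 11012170. Over the 5 shared PPARγ peaks MED1 gave 3.24 (2.23 to 4.74), and over the 8 unshared ones 1.03 (0.517 to 1.95). The former was 3.16 times the latter (1.47 to 6.92), a comparison added after the values had been seen. Without the strongest peak it was 2.08 times (0.932 to 4.75), so the call rests on that 1 peak. At the other loci the order was the opposite within counting error, with the shared value 0.725 times the unshared one at Insr (0.194 to 2.81) and 0.208 times at Irs1 (0.0359 to 1.12). Without its strongest peak the Irs1 comparison rests on 1 shared peak, with 17 and 0 tags, and gave 0 (upper bound 0.442). Over the whole list MED1 gave 1.61 at shared and 1.64 at unshared PPARγ peaks.

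PPARγ itself also differed by sharing at Irs2 through the strongest peak. The 5 shared peaks gave 2.35 (1.93 to 2.87) and the 8 unshared ones 1.47 (1.22 to 1.77). The former was 1.59 times the latter (1.21 to 2.10), and without the strongest peak 1.17 times (0.837 to 1.65). At Insr the PPARγ ratio was 1.06 at shared and 1.17 at unshared peaks, 0.904 times (0.641 to 1.27), within counting error. At Irs1 the values were 1.71 and 1.23, 1.39 times (0.815 to 2.36), and without its strongest peak 0.585 times (0.282 to 1.21). The whole list gave 1.63 at shared and 1.44 at unshared PPARγ peaks, the same order as Irs2.

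**Figure D3:**
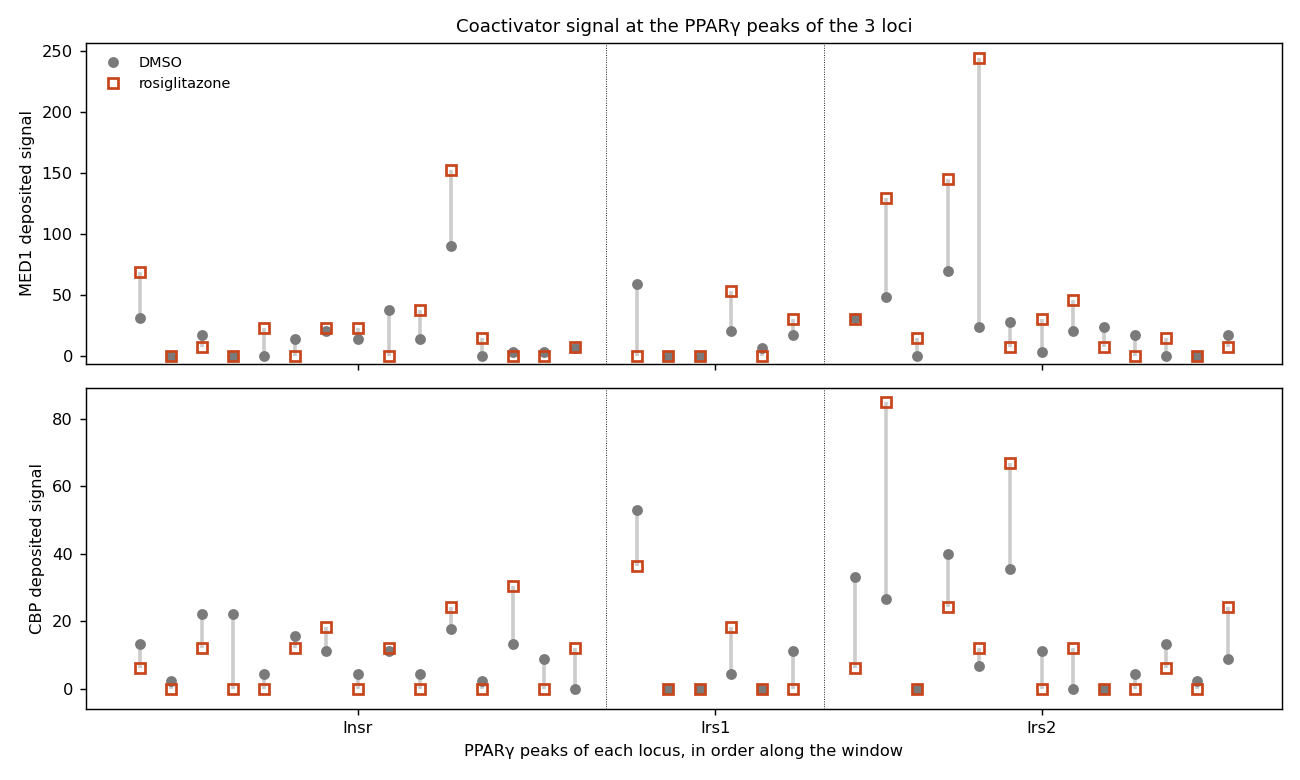
MED1 (top) and CBP (bottom) deposited signal at the 34 PPARγ peaks in order along each window, in DMSO (grey circles) and rosiglitazone (open orange squares), with a grey bar joining the values of 1 peak. The highest MED1 value is at an Irs2 peak with rosiglitazone (245), the next highest at the Insr peak at 3279468 (153), and most CBP values are a few tags.

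C/EBPα peaks of the Irs2 window that no listed PPARγ peak overlapped held more PPARγ tags with rosiglitazone in several places. At 10970602 to 10970832 PPARγ was 0.88 units in DMSO and 15.8 in rosiglitazone (1 and 19 tags), a ratio of 18.0 (2.86 to 746). MED1 there was at 9 and 0 tags, lower but within counting error (upper bound 1.11). PPARγ at 10990830 to 10991060 was 0.88 and 11.6 (1 and 14 tags). At 11005779 to 11006009 it was 0 and 12.5 (0 and 15 tags), at least 4.73-fold higher against 3 tags (the exact interval of the ratio starts at 3.39). With 10983100 to 10983330, at 0 and 6 tags, 4 of the 8 such peaks had at most 1 tag in DMSO and at least 6 in rosiglitazone, against 7.61% of the 19486 such peaks of the list. None of 7 at Insr and none of 6 at Irs1 did. The thresholds were set after these values were seen, so the count is a description.

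The site at 10990830 was also where C/EBPα differed most. C/EBPα was 11.0 units in DMSO and 72.6 in rosiglitazone, from 5 and 57 tags, a ratio of 6.58 (2.66 to 21.0). MED1 was 38.4 and 45.9 there and CBP 11.1 and 12.1, both within counting error. Over all 13 C/EBPα peaks of Irs2, C/EBPα summed to 265 and 327 units, a ratio of 1.24 (0.991 to 1.55), and without this peak 1.00 (0.794 to 1.27). The strongest C/EBPα peak of the window, from 10953746 to 10953976 (score 88.9), was level at 90.5 and 86.6. The other peak among the 3 highest scores, from 10965698 to 10965928, was level too, at 30.9 and 29.3. The C/EBPα peak over the strongest PPARγ peak, from 10960273 to 10960503, was weak in C/EBPα, at 11.0 and 15.3, and that at 10946120 to 10946350 was at 15.5 and 11.5. Their MED1 was 24.5 and 268, and 55.9 and 176. At 10970602 and 10983100, described above for PPARγ, C/EBPα was 6.62 and 19.1 units, and 4.42 and 12.7. Both ratios were 2.88, with intervals that included 1 (0.816 to 15.5 and 0.615 to 27.1). At 11005779 it was 8.83 and 11.5, also within counting error. The 4 peaks not described elsewhere lay between 11.0 and 19.9 units in DMSO and between 6.37 and 25.5 in rosiglitazone.

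A further C/EBPα site at Irs2 had more MED1 with little PPARγ. From 11008790 to 11009020 MED1 was 48.9 in DMSO and 199 in rosiglitazone, from 14 and 26 tags, a ratio of 4.07 (2.05 to 8.43). PPARγ there was 9.67 and 5.82 units, C/EBPα 22.1 and 10.2, and CBP 22.1 and 18.2, none of which differed beyond counting error. It was the only named Irs2 peak where MED1 was higher beyond counting error without a higher PPARγ value.

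Across the 38 C/EBPα members, 5 were at least 2-fold higher in C/EBPα and 4 at least 2-fold lower, against 15.9% and 9.25% of the list. Of the 22 with at least 20 C/EBPα tags, 2 were higher and 0 lower, against 13.8% and 7.38%. The interval lay above 1 for 2 members (7.95% of the list) and below 1 for 1 (6.23%). These counts are near the background. The median log2 C/EBPα ratio was -0.02 for the members and 0.07 for the list.

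Summed by locus, MED1 had its highest ratio at Irs2, while CBP was resolved at none of the loci. MED1 over the PPARγ peaks was 287 units in DMSO and 681 in rosiglitazone at Irs2, a ratio of 2.38 (1.74 to 3.25), against 1.41 at Insr (0.956 to 2.06) and 1.63 for the other PPARγ peaks of the list. The Irs2 ratio was 1.46 times that of those other peaks (1.07 to 2.0), and Insr was at 0.593 times Irs2 (0.359 to 0.978). Without its strongest peak Irs2 gave 1.66 (1.16 to 2.38), and Insr was then 0.847 times Irs2 (0.496 to 1.44). Irs1, at 0.803, was 0.338 times Irs2 (0.144 to 0.751), and 0.388 times over the C/EBPα peaks (0.220 to 0.677). Over the PPARγ peaks that difference was lost without 82180461, at 0.780 times (0.298 to 2.01). It was also lost without the strongest Irs2 peak, at 0.482 times (0.201 to 1.10). Of 403 stretches as long as the Irs2 window with at least 10 PPARγ peaks, 54 had a MED1 ratio at or above that of Irs2. CBP gave 0.835 at Insr (0.487 to 1.38) and 1.30 at Irs2 (0.868 to 1.93), against 1.38 for the others, and its interval included 1 at all 3 loci. The CBP ratio at Insr was 0.605 times that of the other peaks (0.353 to 0.999). That difference is lost over the C/EBPα peaks, at 1.03 times (0.654 to 1.59). Without the peak at 3240053 the ratio of rosiglitazone to DMSO at Insr, 0.835 with it, was 0.977 (0.564 to 1.63). That interval includes the 1.38 of the other peaks.

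**Figure D4:**
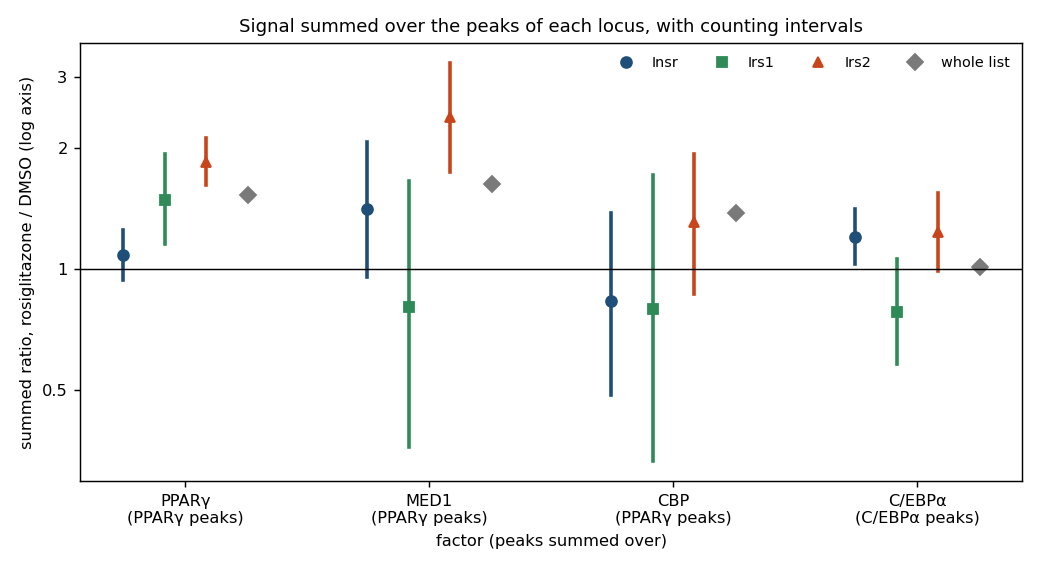
Ratio of rosiglitazone to DMSO (log axis) of signal summed over the peaks of each locus, by factor, with 95% counting intervals as vertical lines, beside the whole list (grey diamonds, intervals smaller than the symbol). For PPARγ the order is Insr (1.08), Irs1 (1.49) and Irs2 (1.85), and for MED1 Irs2 is highest (2.38).

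Single-peak counts of the coactivators were shallow. MED1 was at least 2-fold higher at 12 of the 34 PPARγ members and lower at 11, against 29.8% and 22.5% of the list. CBP was higher at 6 and lower at 14, against 23.6% and 25.1%. Most of these rest on few tags. With at least 20 tags of the factor, 3 of 4 members were higher in MED1, all at Irs2, against 45.1% of such peaks in the list, and 1 of 4 in CBP, against 22.7%. None of the 4 was lower in either, against 8.14% for MED1 and 5.70% for CBP. A count of 4 is too small to set apart from these shares.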

How the data were processed

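ChIP-seq of PPARγ, C/EBPα, MED1 and CBP in 3T3-L1 adipocytes was taken from 2 peak lists that the authors deposited. The submitters' processing notes name FastQC, Bowtie, HOMER, edgeR and the build mm9. Versions, settings and the libraries behind the peak calls were not given in the sources used here. The deposited signal values are normalised tags, in 8 columns. The score, 1 value per peak deposited by the authors, ranked peaks within a list. It names no sample and may include the rosiglitazone signal, so a peak called strongest by score may owe that rank partly to it. The authors also deposited a fraction per peak, the focus ratio, which supports no statement here. The MED1 rosiglitazone column is headed BRL and was matched to the single MED1 rosiglitazone sample. It is unknown whether a PPARγ column is 1 labelled sample or both.

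Tags were recovered as signal divided by the step of each column. Within 0.02 steps, 100% of values came out whole. Ratios of summed tags have exact 95% Clopper-Pearson intervals, and differences between loci the exact conditional interval of the odds ratio. Differences from the other peaks of a list take the locus interval alone. Per-peak 2-fold counts use a pseudocount of 1, which understates changes of low peaks. With 1 column per treatment there is no p-value. Peaks were called shared at 1 bp or more in common.

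All members are accounted for. In each locus and list, the 3 highest scores are named, with each peak at least 2-fold apart in a factor holding at least 20 tags. The members and lists were chosen with earlier results of these data known. Alternatives were windows narrowed by 20 kb, the upper part of each list by score, other overlap rules, pseudocounts of 0.5 and 5, centring, and sums over the other list. The code was tested on simulated data. Python 3.11.15, numpy 2.4.6, pandas 2.3.3, scipy 1.17.1 and matplotlib 3.10.9 were used. A planned list of other insulin pathway genes was not used, since it needs mm9 gene positions.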

Additional observations from a re-analysis of the deposited data

How the results depend on the processing

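Of 134 alternative values, 100 stayed within the reported value's interval (for counts, within 1.5 times), 33 moved and 1 reversed. A ratio was counted as reversed only where the reported interval excluded 1 and the alternative lay on the other side of 1. Of the locus ratios, 11 others also crossed 1, all from reported intervals that included 1. Divided by the ratio over all peaks of the list, PPARγ was 0.710 at Insr, 0.975 at Irs1 (reversed) and 1.21 at Irs2, and MED1 0.867 at Insr and 1.46 at Irs2. Without the peak of highest score, which was also that of largest difference, PPARγ was 1.03 at Irs1 and 1.55 at Irs2, and MED1 1.66 at Irs2. Without its peak of largest difference, or with the window narrowed by 20 kb, MED1 at Irs1 was 1.85. Over the C/EBPα peaks PPARγ at Irs2 was 2.30, and over the PPARγ peaks C/EBPα at Irs1 was 1.26. These leave-out settings were chosen after seeing the data.

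The narrowed window left 5 C/EBPα peaks at Irs1. The upper part of the lists by score left 5 at Irs1 and 4 at Irs2, with 2 shared peaks at Irs2 in either list. Overlap of at least 50% left 1 shared peak at Irs1 in either list, and centres within 500 bp gave 4 shared C/EBPα peaks there. Centred on the list median, PPARγ was at least 2-fold higher at 4 members and lower at 3. With at least 20 tags, MED1 was higher at 3 and lower at 0, CBP higher at 1 and lower at 0, and C/EBPα higher at 2 and lower at 0. A pseudocount of 5 gave 7 lower for MED1, 5 for CBP and 0 for C/EBPα. For values whose alternatives leave out peaks, the loss of those peaks is the cause by construction, and for the rest the cause was not tested.

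No paired analysis was possible because the columns carry no replicate number, so no replicate was left out either. MED1 and CBP are limited by depth: 4 of the 34 PPARγ members held at least 20 tags of MED1, and 4 of CBP.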
